A study of Homo sapiens with 6 samples.

Results

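The anaphase-promoting complex subunits were examined in KHOS and U-2OS cells, established lines of human osteosarcoma, after knockdown of CDK11, a cyclin-dependent kinase with roles in transcription, RNA splicing and the cell cycle. The members were 10 genes, CDC27, CDC16, CDC23, ANAPC1, ANAPC4, ANAPC5, ANAPC7, ANAPC10, ANAPC11 and ANAPC13, and their probe sets were found by the gene symbol of the platform annotation. Of the 54675 probe sets on the Affymetrix U133 Plus 2.0 array, 25 were assigned to 1 member gene, and a further 3 were assigned to ANAPC1 together with its pseudogenes. A signal limit of 100, or 6.64 on the log2 scale, had to be passed on at least 1 of the 6 arrays, and 22 of the 25 probe sets passed it, against 16397 in the whole table. These 22 probe sets covered 9 of the 10 members, since ANAPC1 had no probe set of its own. The list was selected on the lower signal of CDC27 with CDK11 siRNA than with nonspecific siRNA. That difference, and every other difference between transfections that shares those arrays, is therefore given for CDC27 as a description, with no test.

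Each line gave 3 arrays: cells with CDK11 siRNA (40 nM, RNA collected 48 h after transfection), cells with nonspecific siRNA (40 nM) and untransfected cells. The knockdown used 1 CDK11 siRNA sequence. RNA of 3 flasks was pooled for each array, so there was 1 array per group with no replicate within a line, and their small number limits the precision. In bulk RNA of this kind, fewer cells with a transcript and less of the transcript per cell cannot be told apart.

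The anaphase-promoting complex is a large E3 ubiquitin ligase that marks cyclins, securin and other mitotic proteins for destruction, and so drives sister chromatid separation and the exit from mitosis. CDC27, CDC16, CDC23 and ANAPC7 are built of tetratricopeptide repeats and form the arc that docks the coactivators CDC20 and CDH1. ANAPC1, ANAPC4 and ANAPC5 make the platform under that arc, ANAPC11 is the catalytic RING subunit, ANAPC10 helps to hold the substrate, and ANAPC13 is a small stabilising subunit.

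The deposited signals were normalized by quantiles, which makes arrays alike in overall signal whatever the RNA. Medians over all probe sets were 2.92 to 2.98, and between 24.8% and 25.9% of the probe sets were above the limit. Of 5 probe sets assigned to CDK11A and CDK11B, 2 were above the limit, and the brightest stood with CDK11 siRNA at 20.6% of its nonspecific siRNA signal in KHOS and at 16.0% in U-2OS. Its U-2OS signal with CDK11 siRNA, 6.24, was below the limit, so the size of that share is uncertain. Among markers fixed for the cell type, 2 of 6 osteoblast genes, 2 of 4 mesenchymal genes and 3 of 5 epithelial genes passed the limit, against 0 of 3 for blood cells and 0 of 2 for endothelium. COL1A1, the main bone collagen chain, lay at 11.69 to 12.09 in KHOS and at 12.44 to 13.10 in U-2OS. SP7, ALPL and IBSP, genes of maturing osteoblasts, were below the limit on every array, as was SPP1. RUNX2, the osteoblast lineage factor, lay at 9.51 to 10.24 in KHOS and at 4.39 to 7.03 in U-2OS. The epithelial genes had no common direction between the lines. The keratin KRT8 lay at 7.31 to 7.68 in KHOS and at 11.35 to 11.82 in U-2OS. EPCAM went the other way, at 8.81 or above in KHOS and at 5.89 or below, under the limit, in U-2OS. KRT18 overlapped between the lines, and the rest of the epithelial list was below the limit on every array. Summed over its genes, the epithelial list lay at 13.63 to 13.77 in KHOS and at 13.72 to 13.98 in U-2OS on the log2 scale. The mesenchymal list summed to 15.39 to 15.52 in KHOS and to 14.57 to 14.76 in U-2OS. Such sums mostly follow the brightest probe set of a list, KRT18 and VIM here. Signals of different probe sets are not comparable, so the sums do not rank the lists.

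The promoters of CDC27 and of its close structural relatives CDC16 and CDC23 are shown because these repeat subunits sit in the same arc but differed in signal with CDK11 siRNA. The sequences are from RefSeq (GRCh38.p14), run 5′ to 3′ on the strand of the gene and reach from 250 bases before its start to 50 bases after it, at chr17:47189246-47189545 (minus strand) for CDC27, chr13:114234647-114234946 (plus strand) for CDC16 and chr5:138213274-138213573 (minus strand) for CDC23. Capitals mark CCAAT or its reverse complement ATTGG, and CCGGAA or its reverse complement TTCCGG, which is a core of ETS factor sites.
CDC27: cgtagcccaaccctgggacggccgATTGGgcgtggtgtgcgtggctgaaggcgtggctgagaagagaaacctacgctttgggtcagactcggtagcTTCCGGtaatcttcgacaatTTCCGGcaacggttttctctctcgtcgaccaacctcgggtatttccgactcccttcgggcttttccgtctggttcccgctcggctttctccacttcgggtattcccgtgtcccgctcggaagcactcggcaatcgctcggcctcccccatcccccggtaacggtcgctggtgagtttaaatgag
CDC16: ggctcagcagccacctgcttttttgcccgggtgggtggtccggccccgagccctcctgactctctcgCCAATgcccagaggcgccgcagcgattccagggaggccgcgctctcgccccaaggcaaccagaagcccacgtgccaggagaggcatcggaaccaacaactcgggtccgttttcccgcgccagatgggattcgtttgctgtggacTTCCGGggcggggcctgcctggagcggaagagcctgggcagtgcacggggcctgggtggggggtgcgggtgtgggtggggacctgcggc
CDC23: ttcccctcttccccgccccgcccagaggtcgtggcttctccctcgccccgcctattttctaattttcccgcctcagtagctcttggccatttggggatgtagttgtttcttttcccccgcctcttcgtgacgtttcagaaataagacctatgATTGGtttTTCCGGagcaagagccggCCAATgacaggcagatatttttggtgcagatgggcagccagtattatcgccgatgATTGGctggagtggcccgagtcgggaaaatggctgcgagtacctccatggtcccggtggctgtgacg
Counted on both strands, CDC27 held 1 CCAAT match and 2 CCGGAA matches, CDC16 held 1 of each, and CDC23 held 3 of CCAAT and 1 of CCGGAA. The GC box, GGGCGG or CCGCCC, was found 0 times for CDC27, 1 time for CDC16 and 2 times for CDC23, and the cell cycle genes homology region, TTTGAA or TTCAAA, was in none of these 3 windows. All 10 members had a promoter in the table, and 5 held CCAAT, 5 held CCGGAA, 8 held the GC box and 3 held TTTGAA. Over all 35116 promoters of the same length, the shares were 34.6% for CCAAT, 17.2% for CCGGAA, 45.0% for the GC box and 15.2% for TTTGAA. Such a match is a description of the letters and not of a bound site.

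CDC27, the arc subunit that CDH1 and CDC20 dock on, had its lowest signal with CDK11 siRNA in both lines by each of its 4 probe sets. The brightest, 217880_at, read 10.44 with CDK11 siRNA, 11.12 with nonspecific siRNA and 11.67 in untransfected cells of KHOS. In U-2OS the same probe set read 9.84 with CDK11 siRNA, 10.43 with nonspecific siRNA and 10.89 in untransfected cells. The signal with CDK11 siRNA was thus at 62.4% of the nonspecific siRNA level in KHOS and at 66.3% in U-2OS, which are log2 differences of -0.68 and -0.59.

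The second CDC27 probe set, 217879_at, read 7.91 with CDK11 siRNA, 9.09 with nonspecific siRNA and 9.22 untransfected in KHOS, and in U-2OS 9.29 with CDK11 siRNA, 10.28 with nonspecific siRNA and 10.59 untransfected. Probe set 217881_s_at read in KHOS 7.40 with CDK11 siRNA, 8.22 with nonspecific siRNA and 8.59 untransfected, and in U-2OS 8.66 with CDK11 siRNA, 9.38 with nonspecific siRNA and 9.79 untransfected. It held the same order of arrays as the others. The dimmest, 217878_s_at, read in KHOS 5.68 with CDK11 siRNA, 7.05 with nonspecific siRNA and 7.29 untransfected, and in U-2OS 5.84 with CDK11 siRNA, 7.07 with nonspecific siRNA and 7.67 untransfected, so that with CDK11 siRNA it was below the signal limit in both lines. Against nonspecific siRNA, the difference was smallest for the brightest probe set and was -1.18 in KHOS and -0.99 in U-2OS for 217879_at, -0.83 (KHOS) and -0.72 (U-2OS) for 217881_s_at and -1.37 (KHOS) and -1.23 (U-2OS) for 217878_s_at. The share left with CDK11 siRNA therefore ran from 38.6% to 62.4% in KHOS and from 42.5% to 66.3% in U-2OS, depending on the probe set.

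**Figure D1:**
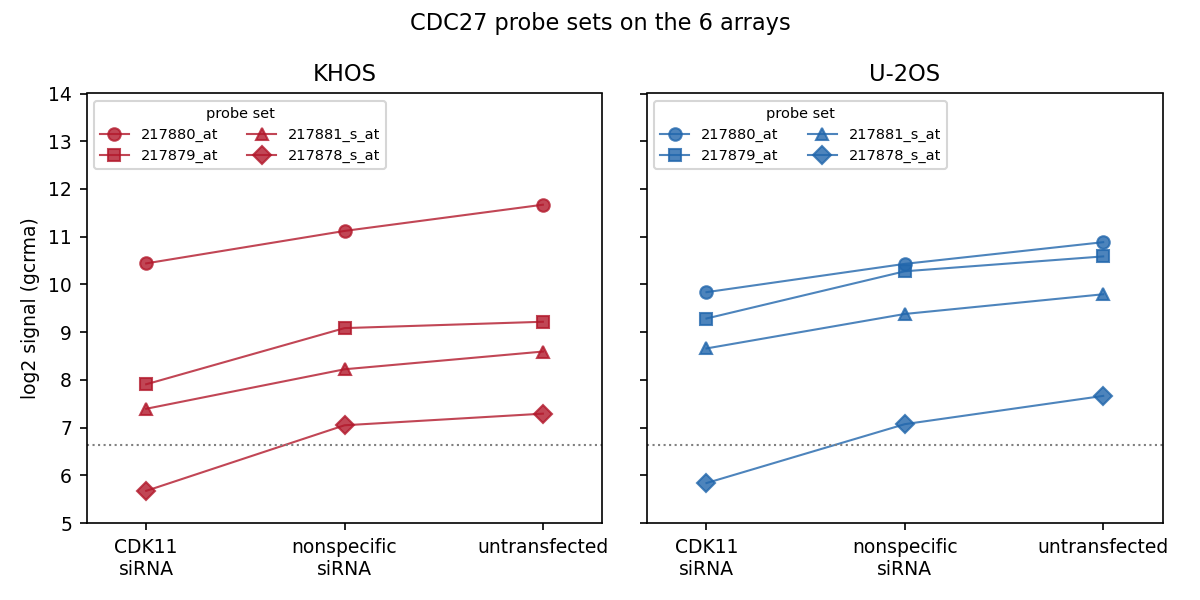
Log2 signal (y axis) of the 4 CDC27 probe sets in cells with CDK11 siRNA, with nonspecific siRNA and untransfected (x axis), KHOS on the left and U-2OS on the right, with 1 array per point and the signal limit of 6.64 dotted. Each probe set is lowest with CDK11 siRNA and highest in untransfected cells in both lines, and 217878_s_at passes below the limit with CDK11 siRNA, at 5.68 in KHOS and 5.84 in U-2OS.

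The study's threshold for a called probe set was a difference beyond 3 SD of the differences over the probe sets above the limit, with an SD of 0.45 in KHOS and 0.37 in U-2OS. By this measure 1 of the 9 members was called in each line, CDC27, through 217878_s_at alone, with z-scores of -3.06 in KHOS and -3.44 in U-2OS. Just outside the threshold lay 217879_at, with z-scores of -2.62 in KHOS and -2.77 in U-2OS, and, in the other direction, the ANAPC5 probe set 235926_at at 2.76 in KHOS, where its signals were below the limit on all 3 arrays. Over all 8878 genes above the limit, 1.95% were called in KHOS and 2.89% in U-2OS, and 1.09% in KHOS and 1.37% in U-2OS were called in the lower direction. The brightest CDC27 probe set was inside the threshold, with z-scores of -1.52 in KHOS and -1.69 in U-2OS, and 5.73% of all genes had a lower difference than it in KHOS, against 3.75% in U-2OS.

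The CDC27 signals also stepped down with nonspecific siRNA. Against untransfected cells, nonspecific siRNA gave differences of -0.55 for 217880_at, -0.13 for 217879_at, -0.37 for 217881_s_at and -0.24 for 217878_s_at in KHOS, and of -0.45 for 217880_at, -0.31 for 217879_at, -0.41 for 217881_s_at and -0.59 for 217878_s_at in U-2OS. All 4 probe sets had this stepwise order in both lines, which was seen in 7.53% of all 14441 probe sets of 1 gene above the limit. The order with CDK11 siRNA lowest of the 3 arrays in both lines was seen in 19.1% of those probe sets. It held for all 4 probe sets in 3.32% of the 301 genes that had 4 such probe sets. Neither order was particular to CDC27. The stepwise order in both lines was also held by 200098_s_at, 211036_x_at and 208722_s_at of ANAPC5, 226917_s_at of ANAPC4 and 241959_at of ANAPC10. CDK11 siRNA was also lowest in both lines for 232524_x_at of ANAPC4 and 207845_s_at of ANAPC10. Against untransfected cells, the CDK11 siRNA signal of CDC27 differed by -1.20 to -1.62 in KHOS and by -1.05 to -1.83 in U-2OS. These differences share the CDK11 siRNA arrays with those against nonspecific siRNA, and the step with nonspecific siRNA shares the nonspecific siRNA arrays with them.

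By their brightest probe sets, the other subunits of the repeat arc were not lowest with CDK11 siRNA in both lines. CDC16, an arc subunit that pairs with itself and binds CDC26, read 10.78 with CDK11 siRNA, 10.79 with nonspecific siRNA and 10.72 untransfected in KHOS by its brightest probe set, 209659_s_at, and in U-2OS 11.26 with CDK11 siRNA, 11.15 with nonspecific siRNA and 11.22 untransfected. Its probe set 209658_at was highest with CDK11 siRNA in both lines, in KHOS at 10.95 with CDK11 siRNA, 10.47 with nonspecific siRNA and 10.49 untransfected, and in U-2OS at 11.26 with CDK11 siRNA, 10.90 with nonspecific siRNA and 10.97 untransfected. The CDC16 probe set 202717_s_at differed by -0.07 in KHOS and 0.16 in U-2OS against nonspecific siRNA, so CDC16 had no common direction.

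CDC23, which lies next to the platform, by 202892_at read in KHOS 10.55 with CDK11 siRNA, 10.97 with nonspecific siRNA and 10.54 untransfected, and in U-2OS 10.42 with CDK11 siRNA, 10.29 with nonspecific siRNA and 10.35 untransfected, so that in KHOS the nonspecific siRNA array was the high one. ANAPC7, at the top of the arc, by 225554_s_at read in KHOS 9.71 with CDK11 siRNA, 10.03 with nonspecific siRNA and 9.82 untransfected, and in U-2OS 9.16 with CDK11 siRNA, 9.23 with nonspecific siRNA and 8.98 untransfected. Against nonspecific siRNA it differed by -0.31 in KHOS and -0.07 in U-2OS, and the untransfected array was the low one in U-2OS. The second probe sets of both genes stepped down in KHOS alone. For CDC23, 223651_x_at read in KHOS 8.57 with CDK11 siRNA, 8.69 with nonspecific siRNA and 9.18 untransfected, and in U-2OS 8.20 with CDK11 siRNA, 8.52 with nonspecific siRNA and 7.95 untransfected. For ANAPC7, 225521_at read in KHOS 6.32 with CDK11 siRNA, 6.84 with nonspecific siRNA and 6.96 untransfected, and in U-2OS 5.40 with CDK11 siRNA, 5.32 with nonspecific siRNA and 5.97 untransfected, all below the limit.

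Of the platform subunits, ANAPC5 had the lowest difference in KHOS. Its brightest probe set, 200098_s_at, read 11.75 with CDK11 siRNA, 12.23 with nonspecific siRNA and 12.42 untransfected in KHOS, and in U-2OS 11.34 with CDK11 siRNA, 11.40 with nonspecific siRNA and 11.54 untransfected. The arrays stood in the same order in both lines, with smaller differences in U-2OS. Against nonspecific siRNA, 4 of its 5 probe sets above the limit were lower in both lines, by -0.42 to -0.57 in KHOS and by -0.05 to -0.19 in U-2OS. The fifth, 235926_at, which was below the limit on all 3 KHOS arrays, was highest with CDK11 siRNA, in KHOS at 6.49 with CDK11 siRNA, 5.25 with nonspecific siRNA and 6.11 untransfected, and in U-2OS at 7.08 with CDK11 siRNA, 6.68 with nonspecific siRNA and 6.43 untransfected. Of the 18 probe sets of members other than CDC27, it also had the lowest difference of nonspecific siRNA minus untransfected in KHOS, -0.87.

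ANAPC4 by 226917_s_at read in KHOS 9.55 with CDK11 siRNA, 9.75 with nonspecific siRNA and 9.79 untransfected, and in U-2OS 8.38 with CDK11 siRNA, 8.54 with nonspecific siRNA and 8.69 untransfected. It was lowest with CDK11 siRNA in both lines, as was its other probe set, 232524_x_at. The 3 probe sets assigned to ANAPC1 and its pseudogenes differed by -0.17 for 218575_at, 0.10 for 229267_at and 0.25 for 231973_s_at in KHOS, and by -0.03 for 218575_at, 0.47 for 229267_at and -0.12 for 231973_s_at in U-2OS, so no direction was common to them.

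The catalytic RING subunit ANAPC11 by 226414_s_at read in KHOS 11.86 with CDK11 siRNA, 12.10 with nonspecific siRNA and 12.22 untransfected, and in U-2OS 12.80 with CDK11 siRNA, 12.82 with nonspecific siRNA and 12.76 untransfected. ANAPC10, the substrate-holding subunit, by 207845_s_at read in KHOS 10.04 with CDK11 siRNA, 10.14 with nonspecific siRNA and 10.26 untransfected, and in U-2OS 9.34 with CDK11 siRNA, 9.56 with nonspecific siRNA and 9.35 untransfected. Both had their lowest KHOS signal with CDK11 siRNA, while in U-2OS ANAPC11 was nearly level and the ANAPC10 signals with CDK11 siRNA and untransfected were alike. ANAPC13 stood at the other end from CDC27 and by 209001_s_at read in KHOS 12.22 with CDK11 siRNA, 11.72 with nonspecific siRNA and 12.03 untransfected, and in U-2OS 12.48 with CDK11 siRNA, 12.32 with nonspecific siRNA and 12.47 untransfected. Against nonspecific siRNA it differed by 0.50 in KHOS and 0.17 in U-2OS, but against untransfected cells only by 0.19 in KHOS and 0.01 in U-2OS. In both lines the nonspecific siRNA array was the low one for ANAPC13. The probe sets 224010_at of ANAPC11, 215282_at of ANAPC13 and 239651_at of ANAPC5 were below the limit on every array, between 2.36 and 2.97.

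By the brightest probe set of each gene, CDC27 had the lowest difference of the 9 members in both lines, which is what brought it into view. Its -0.68 in KHOS stood against a median of -0.22 over the 8 others, with a range of -0.49 (ANAPC5) to 0.50 (ANAPC13), and the median of all genes was 0.0024. In U-2OS its -0.59 stood against a median of -0.04 over the others, with a range of -0.22 (ANAPC10) to 0.17 (ANAPC13), and the median of all genes was 0.0087. The gap between CDC27 and the next lowest member was -0.19 in KHOS and -0.37 in U-2OS. Of these 8 members, 7 were below 0 in KHOS, beside 49.6% of all genes, and 5 in U-2OS, beside 48.2%. Of the other members' 18 probe sets above the limit, 0 lay below the brightest CDC27 probe set in either line.

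The same held against untransfected cells, where the brightest CDC27 probe set gave -1.23 in KHOS and -1.05 in U-2OS. The other members then had medians of -0.16 in KHOS and 0.03 in U-2OS, with ranges of -0.67 (ANAPC5) to 0.19 (ANAPC13) in KHOS and -0.31 (ANAPC4) to 0.17 (ANAPC7) in U-2OS. Over all genes, 1.50% had a lower difference than CDC27 in KHOS and 1.46% in U-2OS. Beyond 3 SD lay 217878_s_at in both lines (z-scores of -3.01 in KHOS and -4.25 in U-2OS) and 217879_at in U-2OS (-3.01), and no probe set of another member. A difference beyond 3 SD in the lower direction was seen in 0.856% of all genes in KHOS and 1.49% in U-2OS.

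**Figure D2:**
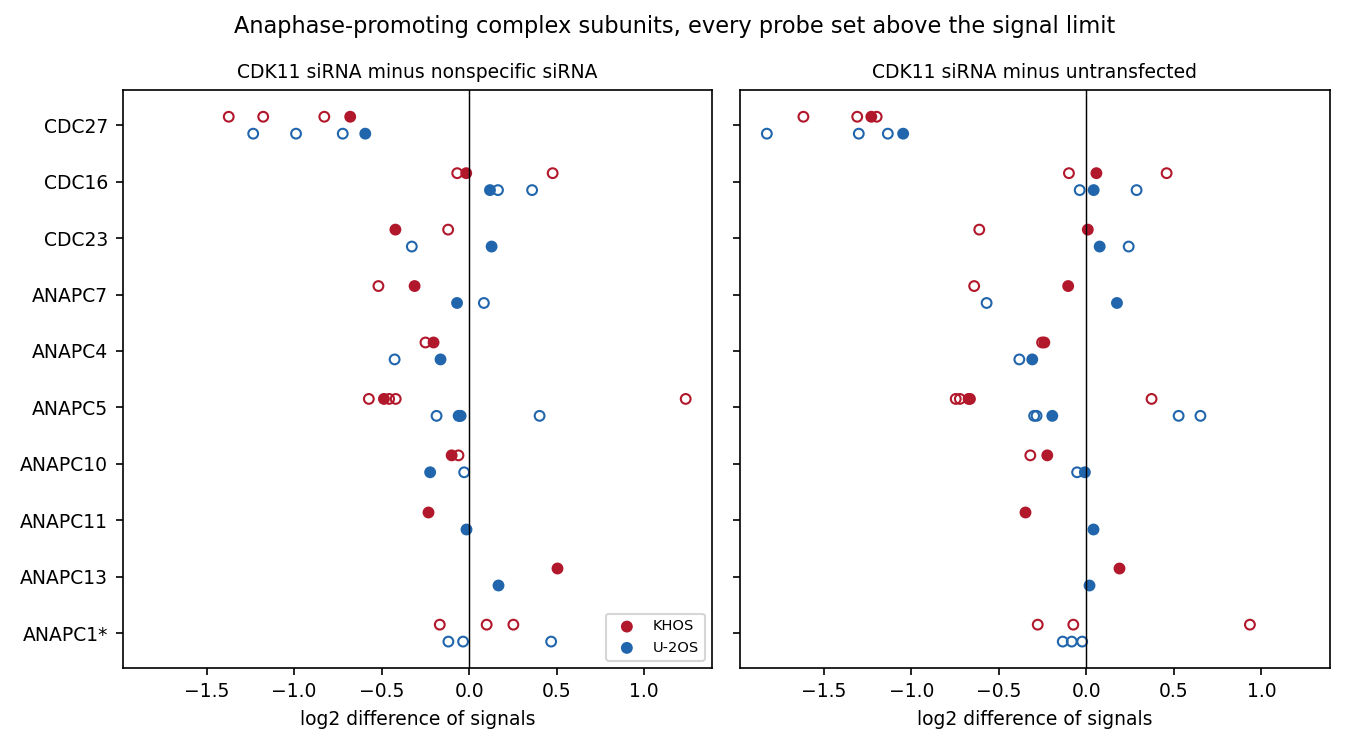
Log2 difference (x axis) of CDK11 siRNA minus nonspecific siRNA (left) and minus untransfected (right) for the members (rows), KHOS in red and U-2OS in blue, with 1 point per probe set above the signal limit, filled for the brightest of a gene and open for the others. The asterisk marks the 3 probe sets shared by ANAPC1 and its pseudogenes, and every CDC27 point lies below 0, from -0.59 to -1.37 on the left and from -1.05 to -1.83 on the right.

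Whether transfection with a nonspecific siRNA moved the subunits was tested with limma, with nonspecific siRNA against untransfected cells and the cell line as a block (n = 2 arrays each). With Benjamini-Hochberg adjustment at 0.05, 0 of the 8 members other than CDC27 passed, and so did 0 of 8878 genes (0.0%), with 751 genes at an unadjusted p under 0.05 and a smallest adjusted p of 0.345. With a variance prior that followed the mean level, 5 genes passed, none of them a member. The fit had 2 residual degrees of freedom, and its p-values measure only the spread between these arrays. Among the members other than CDC27, the estimates ran from -0.23 ± 0.13 (SE) for ANAPC13 to 0.23 ± 0.13 for ANAPC7. The estimate for CDC27 was -0.50 ± 0.12 and is given as a description.

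Most subunits differed in level between the lines. The line difference was not used to choose the members. limma tested KHOS minus U-2OS over the 3 transfections, with transfection as a block (n = 3 arrays each, two-sided). The 3 arrays of a line were different transfections and not replicates, and the fit had 2 residual degrees of freedom. Its p-values therefore do not measure the spread between independent cultures of a line. By their brightest probe sets 8 of the 9 members passed, beside 71.7% of all genes, so such a difference was common in the whole table. ANAPC4, ANAPC10, ANAPC7, ANAPC5 and CDC27 were higher in KHOS, 5 members beside 38.3% of all genes, and ANAPC11, CDC16 and ANAPC13 were lower, 3 members beside 33.3%.

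ANAPC4 had the widest difference of these, 1.16 ± 0.09 on the log2 scale (SE, limma adjusted p = 0.0004), with 9.55 to 9.79 in KHOS, above 8.38 to 8.69 in U-2OS, and no overlap of the lines. ANAPC10 differed by 0.73 ± 0.11 (limma adjusted p = 0.0033), ANAPC7 by 0.73 ± 0.11 (limma adjusted p = 0.0029) and ANAPC5 by 0.71 ± 0.13 (limma adjusted p = 0.0070). In the opposite direction, ANAPC11 differed by -0.73 ± 0.12 (limma adjusted p = 0.0038), CDC16 by -0.45 ± 0.09 (limma adjusted p = 0.0105) and ANAPC13 by -0.43 ± 0.11 (limma adjusted p = 0.0189). CDC23 gave 0.33 ± 0.14 and did not pass (limma adjusted p = 0.0925). It gave 0.16 (limma adjusted p = 0.377) without the nonspecific siRNA arrays and 0.18 (limma adjusted p = 0.291) at equal medians. As a mean of its probe sets CDC23 did pass (0.46, limma adjusted p = 0.0240). By such means ANAPC5 lost its call (0.31, limma adjusted p = 0.107) and ANAPC10 came to 1.97. The ANAPC10 mean includes 241959_at, which passed the limit only through KHOS and read 3.52 to 3.58 in U-2OS. The 1.97 is therefore no measure of size. Shifting the arrays to equal medians moved the median of all genes to -0.08, against 0.07 as deposited, and turned the sign of none of the 9 members. With that shift 2960 genes passed as higher and 3451 as lower in KHOS, against 3403 higher and 2959 lower as deposited. ANAPC13 lost its call without the untransfected arrays (-0.43, limma adjusted p = 0.0519) and without the nonspecific siRNA arrays (-0.35, limma adjusted p = 0.108), and CDC16 without the CDK11 siRNA arrays (-0.43, limma adjusted p = 0.0519).

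The direction for CDC27 depended on the probe set. The brightest, 217880_at, was higher in KHOS by 0.69 ± 0.10 (limma adjusted p = 0.0024 over genes). The lines overlapped in its level, 10.44 to 11.67 in KHOS and 9.84 to 10.89 in U-2OS, and without the block for transfection the limma adjusted p was 0.146. With every probe set fitted on its own, where 72.3% of all probe sets passed, 217879_at was lower in KHOS, at -1.31 ± 0.10 (limma adjusted p = 0.0004), as was 217881_s_at, at -1.21 ± 0.10 (limma adjusted p = 0.0004), while 217878_s_at gave -0.19 ± 0.12 (limma adjusted p = 0.200). The probe sets of CDC27 thus shared a direction with CDK11 siRNA but not between the lines. RefSeq lists 11 pseudogenes of CDC27, and whether any of its probe sets also reads one was not tested. A mean over the 4 probe sets gave -0.50 (limma adjusted p = 0.0064), the reverse of the brightest one.

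Other members with several probe sets were more uniform between the lines, with 1 exception. The ANAPC4 probe set 232524_x_at differed by 1.41 ± 0.10, higher in KHOS. The CDC16 probe set 209658_at was lower in KHOS, at -0.41 ± 0.10, and 202717_s_at gave -0.25 ± 0.10 without passing (limma adjusted p = 0.084). The ANAPC10 probe set 241959_at read 6.63 to 6.95 in KHOS and 3.52 to 3.58 in U-2OS. It passed the limit only through KHOS, as did 225521_at of ANAPC7 and 208721_s_at of ANAPC5, so their fitted line differences are no measure of size. The exception was ANAPC5, where 235926_at read 5.25 to 6.49 in KHOS, below the limit, and 6.43 to 7.08 in U-2OS, while the 3 brighter ones gave 0.51 to 0.71, higher in KHOS.

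**Figure D3:**
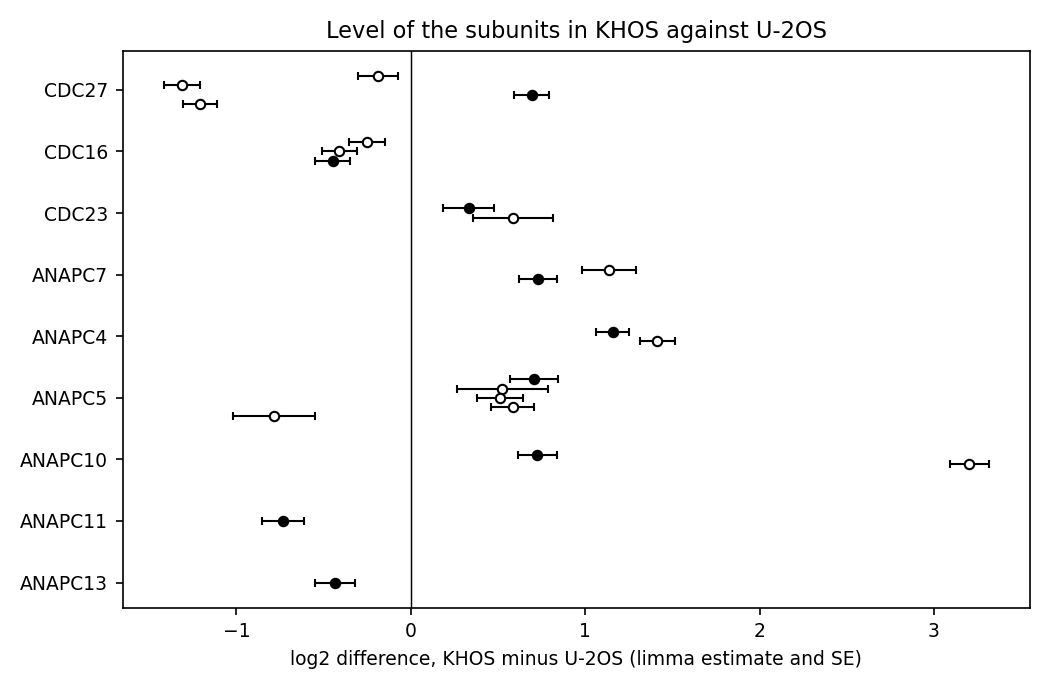
Log2 difference of KHOS minus U-2OS (x axis, limma estimate with its SE as the bar, n = 3 arrays each) for each member (rows), filled for the brightest probe set from the fit over probe sets and open for the others. ANAPC4, ANAPC7 and ANAPC10 lie right of 0 with every probe set, of which 241959_at of ANAPC10 and 225521_at of ANAPC7 were below the signal limit on all U-2OS arrays, while the CDC27 probe sets lie on both sides of it, from -1.31 to 0.69.

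The genes whose values were closest to those of the brightest CDC27 probe set over the 6 arrays, after subtraction of each gene's mean in each line, were not members of the complex. They were NEIL3, a DNA glycosylase, with a root mean square difference of 0.053, NUCKS1, a chromatin-associated phosphoprotein (0.078), SMAD5, a transducer of bone morphogenetic protein signals (0.084), the long noncoding RNA LINC01711 (0.098) and PSMG1, a proteasome assembly chaperone (0.101). NEIL3 was below the limit on every U-2OS array and LINC01711 on every KHOS array. NUCKS1, for example, read 13.29 with CDK11 siRNA, 14.11 with nonspecific siRNA and 14.45 untransfected in KHOS, and in U-2OS 13.37 with CDK11 siRNA, 14.02 with nonspecific siRNA and 14.31 untransfected, the same order as CDC27. Among the members, ANAPC5 was closest, at place 537 of 8877 genes with 0.297, and ANAPC13 was farthest, at place 5984 with 0.540. This likeness rests on 6 arrays and on the same knockdown arrays that chose CDC27.

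Around the members, further subunits of the complex had lower brightest probe sets with CDK11 siRNA than with nonspecific siRNA. Of 4 listed, 3 were above the limit, ANAPC15, ANAPC16 and CDC26, and all 3 differences lay below 0 in both lines, beside 49.6% of all genes in KHOS and 48.2% in U-2OS, with medians of -0.37 in KHOS and -0.33 in U-2OS. ANAPC15, which helps to turn over the mitotic checkpoint complex, read 6.37 with CDK11 siRNA, 7.02 with nonspecific siRNA and 6.89 untransfected in KHOS, and in U-2OS 6.83 with CDK11 siRNA, 7.26 with nonspecific siRNA and 7.07 untransfected. Its values of -0.65 (KHOS) and -0.43 (U-2OS) came nearest to those of the brightest CDC27 probe set. The KHOS signal of ANAPC15 with CDK11 siRNA, 6.37, was below the limit, so the size of the KHOS difference is uncertain. ANAPC16, a small subunit, gave -0.37 in KHOS and -0.07 in U-2OS. In U-2OS its probe sets 229145_at (0.12) and 224667_x_at (0.03) lay above 0. CDC26, a small partner of CDC16, differed from untransfected cells by 0.15 in U-2OS. All 4 CDC27 probe sets were lower with nonspecific siRNA than in untransfected cells, while ANAPC15 was higher, by 0.14 in KHOS and 0.19 in U-2OS.

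The coactivators and ubiquitin-conjugating enzymes had 3 of 5 genes above the limit, with medians of -0.29 in KHOS and -0.02 in U-2OS. CDC20, the mitotic coactivator, read 11.74 with CDK11 siRNA, 12.24 with nonspecific siRNA and 12.38 untransfected in KHOS, and in U-2OS 11.79 with CDK11 siRNA, 11.86 with nonspecific siRNA and 12.29 untransfected, where the low signal was already present with nonspecific siRNA. UBE2S, which extends ubiquitin chains, gave -0.29 in KHOS and 0.13 in U-2OS. FZR1, which encodes CDH1, was below the limit.

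The arrays read RNA, so neither the substrate proteins nor the activity of the complex was measured. Transcripts of substrates of the complex differed between the lines in their counts. Of 20 listed, 19 were above the limit, and against nonspecific siRNA 18 were below 0 in KHOS with a median of -0.35, while 6 were below 0 in U-2OS with a median of 0.08, beside 49.6% of all genes in KHOS and 48.2% in U-2OS. Relative to untransfected cells, 17 of the 19 were below 0 in KHOS, beside 50.1% of all genes, and 16 in U-2OS, beside 48.9%, with medians of -0.38 in KHOS and -0.24 in U-2OS. With nonspecific siRNA against untransfected cells, 10 of the 19 were below 0 in KHOS, near the 50.3% of all probe sets of 1 gene above the limit. Their median was -0.0075, beside a median of 0.01 over all genes. In U-2OS 18 of the 19 were below 0 with a median of -0.35, beside 50.9% of all genes. TK1, thymidine kinase, read 7.94 with CDK11 siRNA, 8.86 with nonspecific siRNA and 8.71 untransfected in KHOS, and in U-2OS 9.37 with CDK11 siRNA, 9.38 with nonspecific siRNA and 9.71 untransfected. NEK2, a centrosomal kinase, read in KHOS 10.00 with CDK11 siRNA, 10.83 with nonspecific siRNA and 10.85 untransfected, and in U-2OS 10.63 with CDK11 siRNA, 10.77 with nonspecific siRNA and 11.40 untransfected. In both genes the CDK11 siRNA array was the low one in KHOS, while both siRNA arrays were low in U-2OS, a contrast of the lines that was not tested.

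Inhibitors and spindle checkpoint genes were all above the limit, 8 of 8, with medians of -0.07 in KHOS and 0.08 in U-2OS. BUB1, a checkpoint kinase, held the 1 probe set of these lists that was above the limit and beyond 3 SD against nonspecific siRNA, 215509_s_at in U-2OS, which passed the limit on that CDK11 siRNA array alone and read 6.74 with CDK11 siRNA, 4.78 with nonspecific siRNA and 6.57 untransfected. The nonspecific siRNA array was the one that stood apart, and the brighter BUB1 probe set, 209642_at, gave -0.08 in KHOS and 0.10 in U-2OS. Among deubiquitinases, which remove ubiquitin, USP37 gave -0.19 in KHOS and 0.25 in U-2OS, and OTUD7B gave 0.07 in KHOS and 0.16 in U-2OS.

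**Figure D4:**
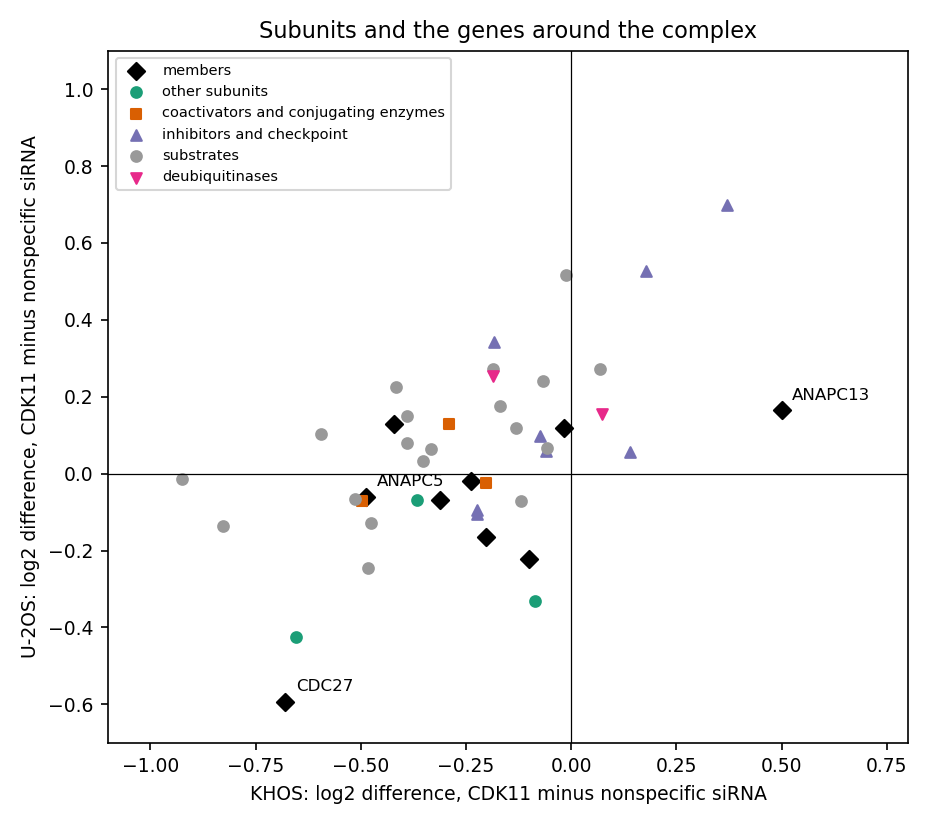
Log2 difference of CDK11 siRNA minus nonspecific siRNA in KHOS (x axis) and in U-2OS (y axis) for the 9 members (black diamonds) and the genes of the lists around the complex, each by its brightest probe set on 1 array per group. CDC27 lies lowest on the y axis of the members at -0.59, and of the 19 substrates 18 lie left of 0 for KHOS and 13 above 0 for U-2OS.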

How the data were processed

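RNA of KHOS and U-2OS cells was hybridised to 6 Affymetrix U133 Plus 2.0 arrays. The authors deposited log2 signals made with gcrma, which corrects background, normalizes by quantiles and summarises probe sets, so the signal of 1 probe set is not comparable with that of another. The table held no unmapped sample column. Present and absent calls of the methods were not used here.

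Probe sets were named from the platform annotation, updated through RefSeq (GRCh38.p14, names and promoters). Of all probe sets 41097 had 1 symbol, 1801 several and 11777 none, and 41043 were matched by gene ID. Probe sets whose highest value exceeded 6.64 were kept, and the brightest, of the highest mean over the 6 arrays, stood for a gene. Differences were scaled by their mean and SD over kept probe sets. limma 3.58.1 (R 4.3.3; two-sided, Benjamini-Hochberg over 8878 genes) was checked on simulated data. Python 3.11.15, pandas 2.3.3, numpy 2.4.6 and matplotlib 3.10.9 were used.

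Members and lists were chosen with earlier results of these data known. Every member was named. From the pathway lists (other subunits, coactivators and conjugating enzymes, inhibitors and checkpoint, substrates, deubiquitinases) those beyond a z-score of 3, or else the 2 with the largest mean absolute difference, were named, and the 5 genes most like CDC27. Alternatives covered the probe set rule, filter, control array, scaling, z-score, variance prior, blocks and arrays left out.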

Additional observations from a re-analysis of the deposited data

Results flagged for a closer look

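CDC16 and CDC23, both repeat subunits of the arc, had differences of CDK11 siRNA and nonspecific siRNA of opposite sign in the lines by their brightest probe sets. For CDC16 it came to -0.02 (KHOS) and 0.12 (U-2OS), so that KHOS minus U-2OS came to -0.14. For CDC23 it was -0.42 in KHOS and 0.13 in U-2OS, and KHOS minus U-2OS came to -0.55. With 1 array per group, no test of this contrast of the lines was made. Against untransfected cells the KHOS signal of CDC23 was at 100.6%, and its other probe set, 223651_x_at, gave -0.12 in KHOS and -0.33 in U-2OS against nonspecific siRNA.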

How the results depend on the processing

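Against nonspecific siRNA, CDC27 differed by -0.68 (KHOS) and -0.59 (U-2OS) by the brightest probe set, -1.01 (KHOS) and -0.88 (U-2OS) as a mean of the probe sets above the limit, and -1.23 (KHOS) and -1.05 (U-2OS) with the untransfected array as control. Equal medians and a second quantile normalization gave -0.67 and -0.72 for KHOS and -0.62 and -0.59 for U-2OS. The number of members beyond the z-score threshold in KHOS was 1, but 2 with no filter, with median and MAD and at a threshold of 2, when ANAPC5 joined CDC27 in the opposite direction, higher with CDK11 siRNA, through 235926_at, and 0 with a limit of 8 or with the brightest probe set only, which also gave 0 in U-2OS. The number of members that passed between the lines was 8 and was 9 with a variance trend, 7 without the transfection block and 7 to 7 when arrays were left out, singly or by transfection. The single arrays were chosen after seeing the data, and the lone array of its transfection then adds nothing to the line difference. For single members, CDC27 turned to -0.50 (limma adjusted p = 0.0064) with a mean of probe sets and gave an adjusted p of 0.146 in limma without the transfection block. ANAPC5 gave 0.31 (limma adjusted p = 0.107) and CDC23 0.46 (limma adjusted p = 0.0240) with that mean, and CDC23 passed with a variance trend (limma adjusted p = 0.0418). For nonspecific siRNA against untransfected cells, 0 of the 8 members other than CDC27 passed under every alternative run, while 5 genes outside the members passed with a variance trend and 1 without the untransfected array of KHOS or that of U-2OS. The median of the other members in U-2OS was -0.04 and came to -0.01 as means of probe sets, -0.07 at equal medians and 0.03 with the untransfected array as control. The labels carry no replicate numbers to pair arrays by, and the arrays were blocked by line or by transfection in limma.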
